A study of Homo sapiens with 28 samples.

Results

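The genes described here code for the nuclear subunits of respiratory complexes III and IV and of ATP synthase, with the factors, isoforms and copies that share their symbols. They were chosen by symbol, as every gene whose name begins with UQCR, ATP5 or COX and a digit, plus CYC1. The rule took 55 of the 19044 genes tested in a pooled CRISPR knockout screen, and 58 of the 25807 symbols in an RNA-seq table, of which 50 were among the 15391 that passed a filter on low counts. In the screen these were 9 subunits of complex III, 10 of complex IV, 15 of ATP synthase, 9 assembly factors of complex IV, 8 tissue isoforms or copies, and 4 other genes. The 8 symbols that did not pass the RNA filter were the isoforms ATP5L2, COX4I2, COX6A2, COX7B2 and COX8C, the pseudogenes ATP5EP2 and UQCRBP1, and the readthrough ATP5J2-PTCD1.

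Complex III passes electrons from ubiquinol to cytochrome c, and complex IV, cytochrome c oxidase, passes them on to oxygen. Both pump protons across the inner mitochondrial membrane, and ATP synthase lets the protons return through a ring of c subunits whose rotation drives ATP production in the F1 head. Each complex joins subunits coded in the nucleus to others coded in mitochondrial DNA, and complex IV needs many dedicated assembly factors to insert its haem and copper.

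Both experiments used U2OS, a human osteosarcoma cell line. In the screen, p53 wild-type (WT) cells and a p53 knockout (KO) derivative carried a genome-wide knockout library. The guides in their DNA were sequenced at the start (T0, untreated), after 96 h in the DMSO solvent, which the sample titles call untreated, and after 96 h in 5 µM etoposide, an inhibitor of topoisomerase II. Each of these 6 groups had 3 libraries, A, B and C. For the RNA, p53 WT cells were the recipients in every library. They were collected at T0, or after 8 h in medium conditioned by WT or p53 KO U2OS cells that had been given DMSO or 31.6 µM etoposide. These 5 groups had 2 libraries each, A and B. Whether the knockout is 1 clone is not given in the sources used here. Nothing in the labels says that libraries came from separate cultures, so p-values measure only the spread between these samples, which may be technical.

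Library totals ran from 30437296 to 48230735 guide counts in the screen and from 16825669 to 20290764 gene counts in the RNA. The 2 KO DMSO medium libraries stood apart from each other more than any other replicate pair, with a chi-square per degree of freedom of 12.8 against 1.90 to 5.09 in the other RNA groups. Guides against CDKN1A, which codes for the cell cycle inhibitor p21, fell after etoposide in WT cells by 0.48 on the log2 scale (adjusted p = 4.36e-10). CDKN1A was not called in KO cells, where it stood at −0.17. CDKN1A transcripts rose in etoposide medium against DMSO medium from both donors, by 2.01 for WT and 2.35 for KO. Of 7 markers of osteosarcoma or mesenchymal cells, COL1A1, VIM and SPARC had medians of 3499.8, 2559 and 1398 TPM, a transcript level scaled to gene length and library total. The bone genes ALPL, RUNX2 and SPP1 had 38.2, 14.1 and 3.61, whereas COL1A2 had 0.30. Blood markers were at 0.23 TPM or less, muscle markers at 2.09 or less, and of the epithelial markers KRT18 stood at 847 and EPCAM, CDH1 and KRT19 at 2.47 or less.

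Loss of ATP synthase subunits was followed first in p53 WT cells without drug. Guides against 7 of the 15 subunits fell between T0 and 96 h in DMSO, which means that cells carrying them became a smaller part of the pool. None of the 15 rose, and over all 55 genes 8 fell and 1 rose. Across the whole screen 6.53% of genes were called in either direction and 5.4% were called lower (edgeR quasi-likelihood test, Benjamini-Hochberg adjusted p under 0.05). The median log2 change was −0.15 over the 15 subunits, −0.07 over complex III, −0.06 over complex IV and 0.00 over all genes tested. Values below are counts summed over the guides of a gene, as CPM (counts scaled to the same library total) in libraries A, B and C. Errors of log2 changes are standard errors with 3 libraries a group. Most genes described were picked by p, so groups that do not overlap describe the libraries and add no support to a call. The share of all genes whose groups lie apart is not given here.

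The F1 head makes ATP at the interface of its alpha and beta subunits. Guides against ATP5A1, the alpha subunit, stood at 54.7, 54.3 and 59.6 CPM at T0 and at 45.03, 41.9 and 41.7 CPM in DMSO. The groups did not overlap, and the change was −0.39 ± 0.05 (adjusted p = 1.6e-08). Guides against ATP5B, the catalytic beta subunit, stood at 52.97, 53.7 and 56.5 CPM at T0 and 43.4, 42.7 and 43.6 CPM in DMSO, again without overlap, a change of −0.33 ± 0.05 (adjusted p = 2.2e-06). ATP5D, the delta subunit of the central rotor, had a smaller change. Its guides went from 63.1, 67.2 and 64.5 CPM to 57.95, 60.02 and 52.99 CPM, or −0.19 ± 0.05 (adjusted p = 0.00529), and the call ended without WT T0 B or without WT DMSO C, with an adjusted p of up to 0.106. The gamma subunit ATP5C1 (−0.13 ± 0.05) and the epsilon subunit ATP5E (−0.15 ± 0.08), which share that rotor, were not called.

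The peripheral stalk holds the head still against the turning rotor. Of its 4 genes, ATP5F1 (subunit b) and ATP5O (the oligomycin sensitivity subunit) fell. ATP5F1 guides stood at 48.8, 51.1 and 46.4 CPM at T0 and 42.8, 40.2 and 35.99 CPM in DMSO, a change of −0.30 ± 0.06 (adjusted p = 3.68e-05). ATP5O guides stood at 41.1, 38.5 and 39.96 CPM and then 34.7, 30.7 and 33.8 CPM, a change of −0.27 ± 0.06 (adjusted p = 0.0017). Every T0 library was above every DMSO library for both genes. Subunit d (ATP5H, −0.02 ± 0.06) and subunit F6 (ATP5J, −0.04 ± 0.05) were not called.

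Subunits e, f and g are small membrane proteins at the contact between 2 synthase monomers. Guides against ATP5I, subunit e, stood at 47.3, 45.97 and 45.03 CPM at T0 and 37.3, 36.5 and 37.9 CPM in DMSO, a change of −0.31 ± 0.06 (adjusted p = 4.55e-05). Guides against ATP5J2, subunit f, stood at 27.5, 28.5 and 27.5 CPM and 22.8, 19.8 and 19.9 CPM, a change of −0.42 ± 0.07 (adjusted p = 1.75e-05). Neither gene's groups overlapped, while ATP5L, subunit g, was not called (−0.09 ± 0.06). ATP5J2 is part of a readthrough gene, ATP5J2-PTCD1, whose separately listed guides were not called (−0.13 ± 0.05). The 3 genes of the c ring, ATP5G1, ATP5G2 and ATP5G3, code for the same mature protein. Guides against each of them left the pool composition near its start, at 0.06, −0.07 and 0.01, and none was called.

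**Figure D1:**
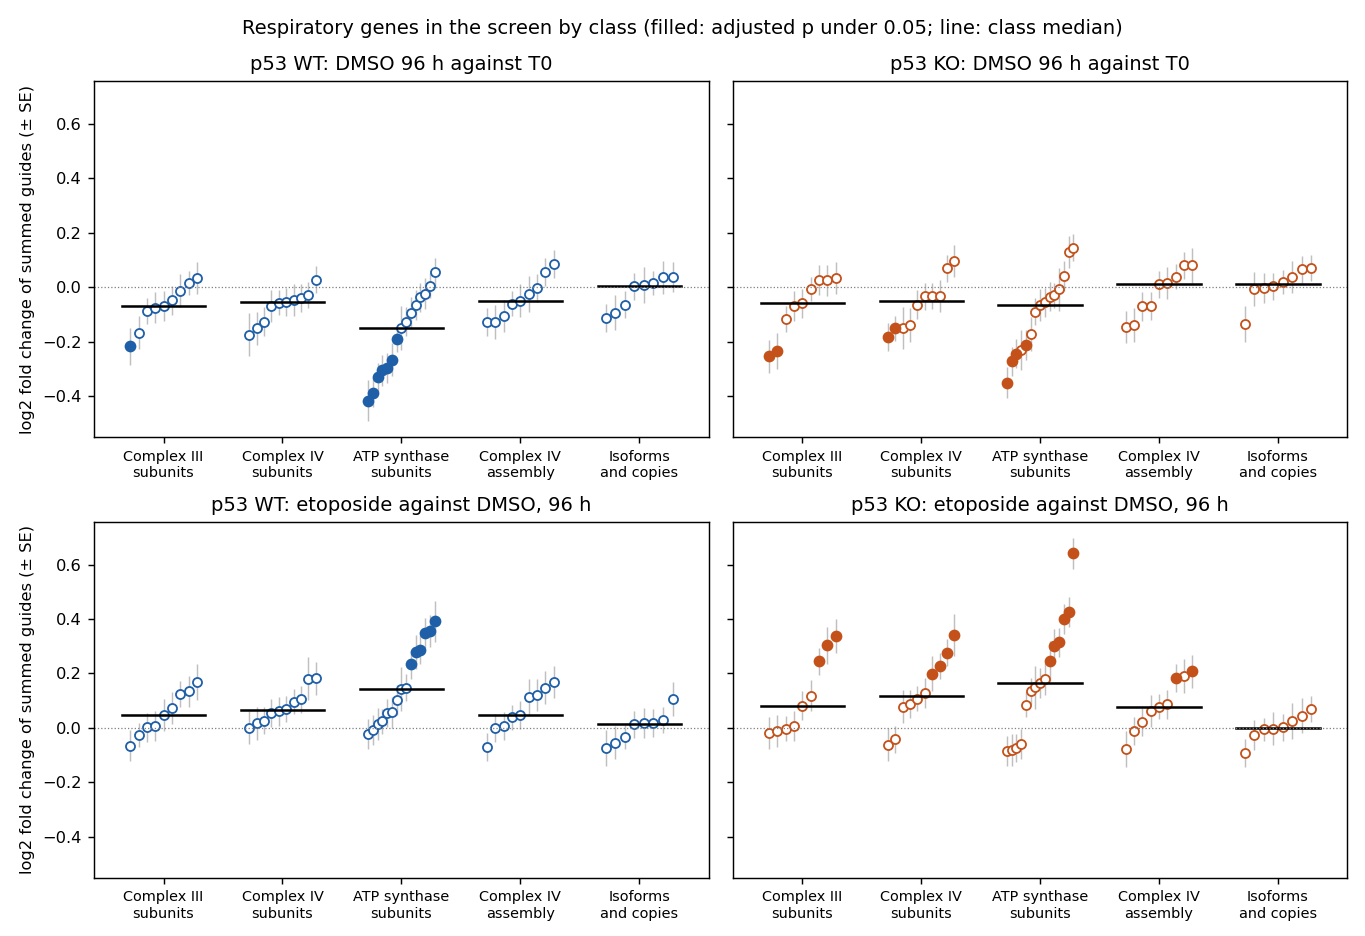
Log2 change of summed guide counts for each gene (points, with standard error bars) by class, for DMSO at 96 h against T0 (top) and etoposide against DMSO (bottom) in p53 WT (left) and KO cells (right), with filled points under an adjusted p of 0.05 and lines at class medians. Filled points lie below 0 in the top panels and above 0 in the bottom panels, with 7 ATP synthase subunits filled at the top left. COX7A2L belongs to none of these classes and is not drawn.

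In complex III, 1 of 9 subunits fell in WT cells on the reported scale. This was UQCRFS1, the Rieske iron-sulphur protein that takes electrons from ubiquinol. Its guides stood at 37.4, 39.1 and 35.2 CPM at T0 and 33.9, 33.2 and 28.9 CPM in DMSO, without overlap, a change of −0.22 ± 0.07 (adjusted p = 0.0278). The call ended without WT T0 A, WT T0 B or WT DMSO C, and with guides of under 200 counts left out, with an adjusted p of up to 0.251. The hinge protein UQCRH had −0.17 ± 0.06 and was not called, and the core protein UQCRC1 and cytochrome c1 (CYC1) stood at −0.01 and 0.02.

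No subunit of complex IV passed the test in WT cells, and 3 of 10 were under an unadjusted p of 0.05, as were 3440 of all 19044 genes. The smallest p belonged to COX8A, a small membrane subunit, with 41.9, 42.01 and 41.8 CPM at T0 and 43.7, 35.3 and 33.9 CPM in DMSO. Library A was above the T0 values and the other two were below them, and the change was −0.15 ± 0.06 (adjusted p = 0.144). The 9 assembly factors of complex IV had a median of −0.05, and 0 were called at the adjusted threshold, with 2 under an unadjusted p of 0.05. COX14 and COX15, which act on the COX1 protein and on haem a, both had −0.13, and the copper chaperone COX17 had −0.11. The 8 isoforms and copies had a median of 0.01, with 0 called and 1 under an unadjusted p of 0.05. The scale moved these counts. With scaling to the non-targeting guides, which cut no gene, the complex IV subunits COX6B1 (−0.24, adjusted p = 0.0262), COX7C (−0.19, adjusted p = 0.00703) and COX8A (−0.22, adjusted p = 0.00886) were called lower in WT cells. So were the assembly factors COX14 (−0.19, adjusted p = 0.00553), COX15 (−0.19, adjusted p = 0.0234) and COX17 (−0.17, adjusted p = 0.0343), and the isoform COX4I2 (−0.18, adjusted p = 0.00894). In complex III it added UQCR10 (−0.15, adjusted p = 0.0195) and UQCRH (−0.23, adjusted p = 0.003) to UQCRFS1.

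COX7A2L, a relative of COX7A2 that binds complex III and links it to complex IV in supercomplexes, was the gene that rose. Its guides stood at 66.04, 61.5 and 65.8 CPM at T0 and 69.6, 69.95 and 76.2 CPM in DMSO, a change of 0.16 ± 0.05 (adjusted p = 0.0168). All 6 of its guides were above 0, and the groups did not overlap. With scaling to the 999 non-targeting guides the change was 0.10 and not called, and the call also ended in limma on guide means, without WT T0 B and without WT DMSO C. In KO cells the same guides stood at 67.2, 66.1 and 66.2 CPM at T0 and 63.6, 66.1 and 62.5 CPM in DMSO, or −0.05 ± 0.05 (adjusted p = 0.655). The difference between KO and WT cells was −0.21 ± 0.07 (adjusted p = 0.325), which did not pass.

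Without p53, 8 of the 55 genes fell between T0 and DMSO and 0 rose, where 3.51% of all genes were called and 3.09% were called lower. They were 4 ATP synthase subunits, 2 subunits of complex III and 2 of complex IV. ATP5I went from 50.3, 47.3 and 42.7 CPM to 37.5, 36.3 and 36.02 CPM, a change of −0.35 ± 0.06 (adjusted p = 5.31e-06). ATP5B went from 49.8, 56.3 and 54.9 CPM to 41.9, 46.9 and 44.5 CPM (−0.27 ± 0.05, adjusted p = 0.000255). ATP5A1 went from 59.3, 64.9 and 59.2 CPM to 52.3, 52.7 and 50.01 CPM (−0.24 ± 0.05, adjusted p = 0.00086). For these 3 genes every DMSO library was below every T0 library. ATP5F1 went from 49.04, 51.96 and 50.8 CPM to 44.5, 44.4 and 42.4 CPM (−0.21 ± 0.05, adjusted p = 0.00967), a call that ended without KO T0 B, without KO DMSO C and in limma on guide means, with an adjusted p of up to 0.0832. ATP5J2 and ATP5O, which were called in WT cells, had −0.23 ± 0.07 (adjusted p = 0.059) and −0.17 ± 0.06 (adjusted p = 0.11). The class median was −0.07.

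In complex III the core protein UQCRC1 fell in KO cells. Its guides stood at 41.4, 41.4 and 42.5 CPM at T0 and 34.00, 34.1 and 37.01 CPM in DMSO, a change of −0.25 ± 0.06 (adjusted p = 0.00415), and the groups were well apart. In WT cells the same guides stood at 43.05, 41.4 and 41.6 CPM and 42.8, 42.01 and 40.1 CPM. The difference between the backgrounds was −0.24 ± 0.09 (adjusted p = 0.405) and did not pass. UQCRFS1 went from 35.2, 38.02 and 36.9 CPM to 29.4, 29.2 and 34.95 CPM (−0.24 ± 0.07, adjusted p = 0.0234). The groups did not overlap, and the call ended without either of T0 B and C or of DMSO A and B, and without the guides of under 200 counts, with an adjusted p of up to 0.337.

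The complex IV subunits that fell in KO cells were COX7B and COX6A1, both small nuclear-coded subunits around the catalytic core. COX7B guides stood at 55.2, 57.3 and 61.5 CPM at T0 and 53.7, 52.2 and 47.6 CPM in DMSO (−0.18 ± 0.05, adjusted p = 0.0201). The call ended without KO T0 B, KO T0 C or KO DMSO C and in limma on guide means, with an adjusted p of up to 0.236. COX6A1 guides stood at 73.8, 71.7 and 74.1 CPM and 66.99, 65.5 and 65.2 CPM (−0.15 ± 0.05, adjusted p = 0.0411), and 6 of 6 guides were lower. That call ended whichever of the 6 libraries was left out, with an adjusted p of up to 0.149. Both genes' groups were apart. The 9 assembly factors had a median of 0.01 with 0 called and 2 under an unadjusted p of 0.05, and the 8 isoforms 0.01 with 0 called and 1 under that p, beside 2817 of all 19044 genes. With non-targeting scaling COX17 was called lower in KO cells (−0.19, adjusted p = 0.0328). Of the c ring, ATP5G1 had the smallest p (0.15 ± 0.05, adjusted p = 0.103), with 6 of 6 guides above 0.

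The loss of guides in KO minus that in WT cells was called for 0 of the 55 genes and for 0.00525% of all genes. Of the 55, 6 stood at an unadjusted p under 0.05, as did 1462 of all 19044 genes, with the smallest p for COX7A2L. The scale bears on these counts. With the non-targeting guides as the reference in place of the trimmed mean of M values (TMM), the split of all calls moved from 215 higher and 1029 lower to 20 and 2870 in WT cells, and from 80 and 588 to 17 and 1361 in KO cells. Calls among the 55 genes then numbered 0 higher and 19 lower in WT cells, and 0 and 12 in KO cells. By class, the 19 were 8 of 15 ATP synthase subunits (ATP5C1 was added, at −0.19), 3 of 9 of complex III, 3 of 10 of complex IV, 3 of 9 assembly factors, 1 isoform and the readthrough ATP5J2-PTCD1. The 12 were 6 ATP synthase subunits, 3 of complex III, 2 of complex IV and 1 assembly factor. How the calls divide between complexes thus depends on the scale. The non-targeting guides had a median of 0.06 in WT and 0.05 in KO cells on the TMM scale, and 27.7% of them were below 0 in WT cells against 50.8% of all targeting guides and 72% of the 82 ATP synthase guides.

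**Figure D2:**
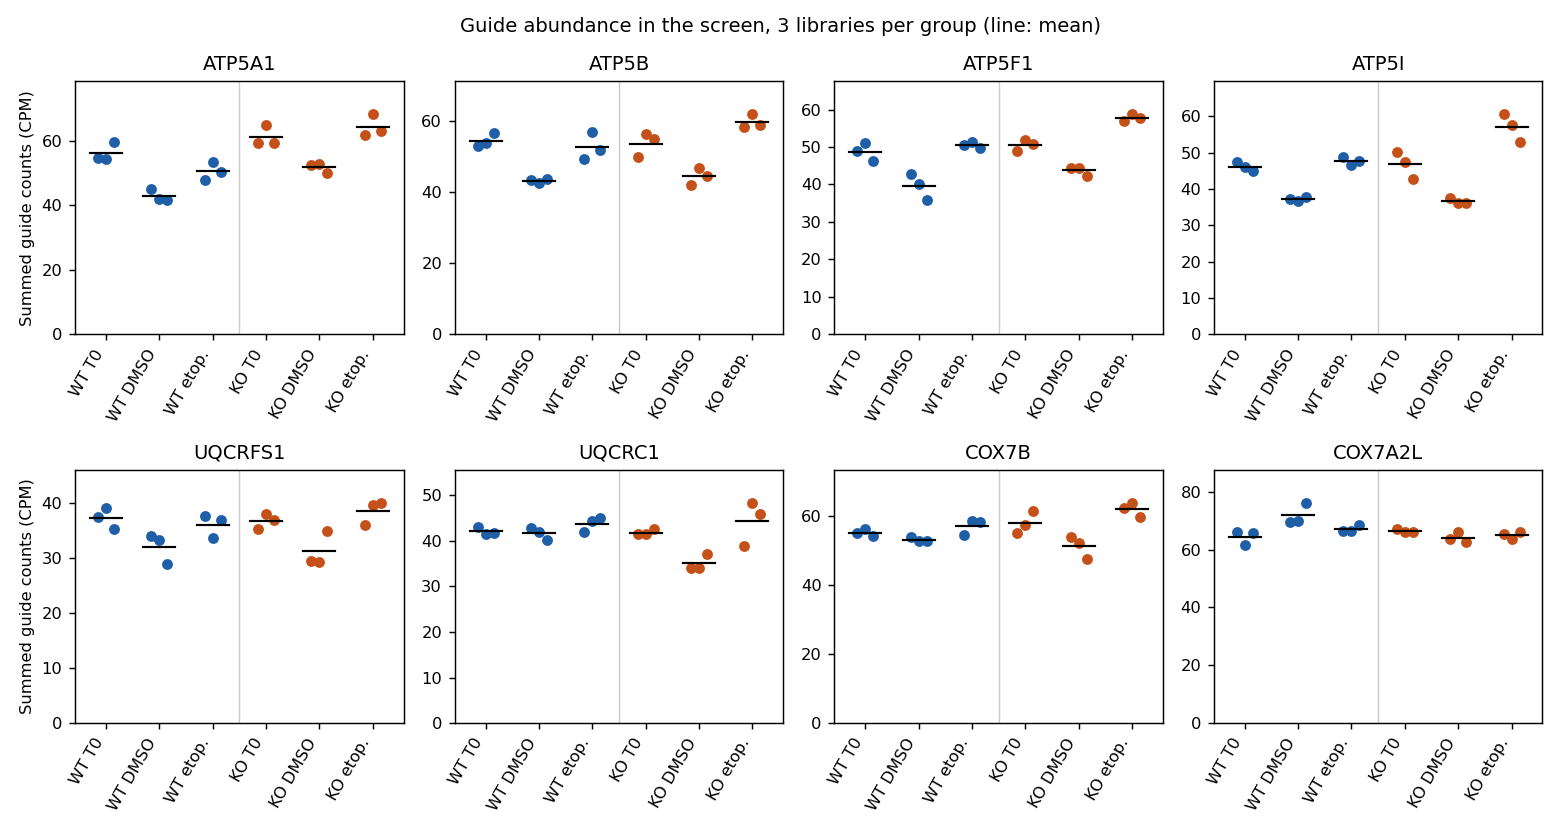
Summed guide counts in CPM (axis from 0) for 8 genes in each library, with lines at group means, for p53 WT (blue) and p53 KO (orange) cells. ATP5A1, ATP5B, ATP5F1 and ATP5I are lower in DMSO than at T0 in both backgrounds, and COX7A2L is higher in DMSO in WT cells.

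Guides of 1 gene share their target and are not replicates, and their spread shows how evenly a gene's change was carried. The 55 genes had 310 guides: 39 genes had 6, 12 had 5 and 4 had 4. Whether guides with few counts were removed before deposit is not given in the sources used here. In growth of WT cells ATP5B guides ranged over −1.14 to −0.01 and those of ATP5A1 over −0.84 to 0.14 on the log2 scale. ATP5I fell into 2 sets, since 3 guides stood at −0.55 or lower and the other three at −0.15 or higher. ATP5J2 (−0.65 to −0.16) and ATP5O (−0.61 to −0.13) had 4 guides each, all below 0. ATP5F1 guides ranged over −0.60 to 0.09.

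**Figure D3:**
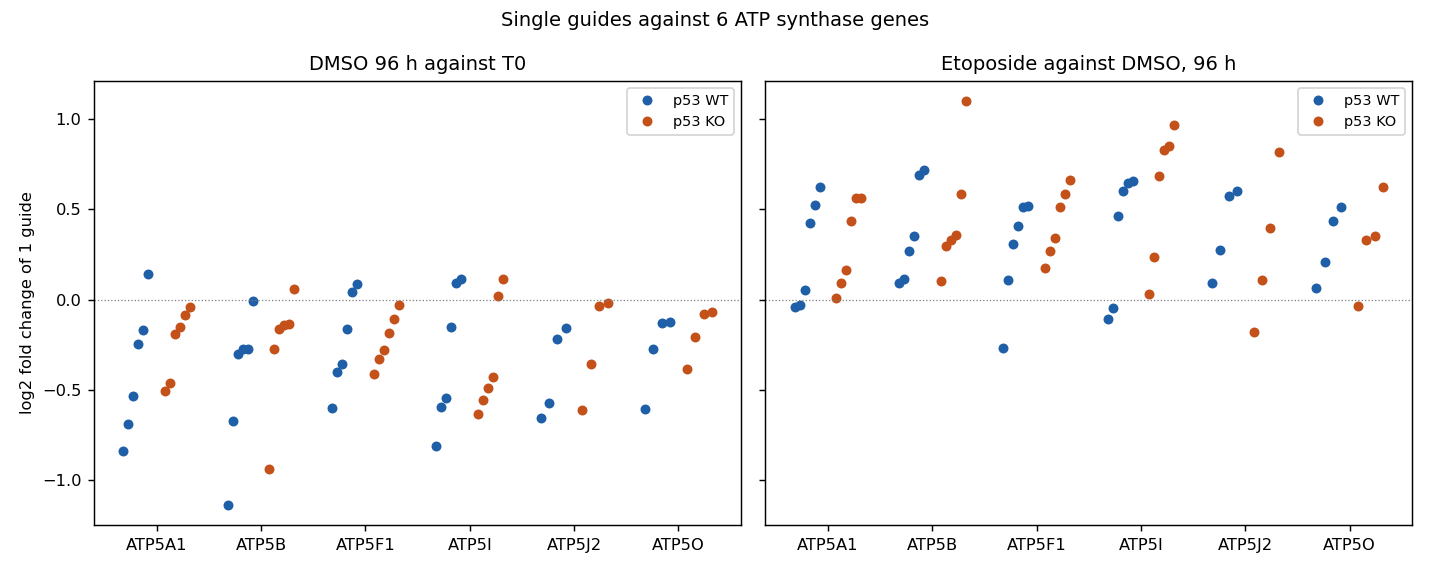
Log2 change of each guide (1 point) against 6 ATP synthase genes in p53 WT (blue) and KO cells (orange), for DMSO against T0 (left) and etoposide against DMSO (right). Most points lie below 0 on the left and above 0 on the right, and ATP5B has 1 guide at −1.14 in WT cells on the left and 1.10 in KO cells on the right.

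Etoposide was compared with DMSO at the same time. In WT cells guides against 6 of the 55 genes were higher after 96 h in etoposide than after 96 h in DMSO, all 6 of them ATP synthase subunits, and 0 were lower, where 2.2% of all genes were called and 1.91% were called higher. These comparisons share the DMSO libraries with the growth comparison above, so a low DMSO value enters both with opposite sign. The libraries in etoposide are therefore given beside DMSO and, further on, beside T0.

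Guides against ATP5F1 rose to 50.6, 51.3 and 49.6 CPM in etoposide, a change of 0.35 ± 0.06 (adjusted p = 3.18e-06) from DMSO. ATP5I rose to 48.7, 46.7 and 47.8 CPM (0.36 ± 0.06, adjusted p = 4.85e-06). ATP5B rose to 49.4, 56.9 and 51.9 CPM (0.29 ± 0.05, adjusted p = 0.000154). For these, as for ATP5J2 and ATP5O, every etoposide library was above every DMSO library. ATP5J2 reached 25.8, 26.6 and 29.6 CPM (0.39 ± 0.07, adjusted p = 0.000186) and ATP5O 38.1, 42.6 and 39.7 CPM (0.28 ± 0.06, adjusted p = 0.00225). ATP5A1 rose to 47.8, 53.2 and 50.3 CPM (0.23 ± 0.05, adjusted p = 0.00319), also apart from its DMSO libraries. The ATP5A1 call ended without WT etoposide B (adjusted p = 0.092), and the ATP5O call without WT DMSO B or WT etoposide B, with an adjusted p of up to 0.0713. ATP5D, lower in growth, had 0.15 ± 0.05 (adjusted p = 0.103).

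The class median was 0.14 for ATP synthase, 0.05 for complex III, 0.06 for complex IV, 0.05 for the assembly factors and 0.02 for the isoforms. The c ring stood at 0.05, −0.01 and 0.02. In complex III the smallest p was that of UQCR10, a small membrane subunit, at 66.4, 61.9 and 57.3 CPM in DMSO and 67.4, 65.4 and 69.6 CPM in etoposide (0.12 ± 0.05, adjusted p = 0.191), with overlapping groups. In complex IV it was COX8A, at 41.9, 43.2 and 43.2 CPM in etoposide (0.18 ± 0.06, adjusted p = 0.122), whose groups also overlapped. With non-targeting scaling 10 of the 55 were higher, ATP5D, COX10, COX8A and UQCR10 being the additions, and the split over all genes moved from 363 higher and 56 lower to 912 and 17.

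KO cells had more calls and over more complexes. Guides against 15 of the 55 genes were higher in etoposide than in DMSO and 0 were lower, where 4.23% of all genes were called and 3.05% were called higher. The 15 were 6 ATP synthase subunits, 3 subunits of complex III, 4 of complex IV and 2 assembly factors. Medians were 0.17, 0.08, 0.12 and 0.08 in that order, and 0.00 for the isoforms, of which 0 of 8 were called at the adjusted threshold or under an unadjusted p of 0.05, where 3251 of all 19044 genes were under that p. Non-targeting scaling gave 18 of the 55 higher, and moved the split over all genes from 581 higher and 225 lower to 737 and 127.

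ATP5I had the largest change of the 55. Its guides stood at 37.5, 36.3 and 36.02 CPM in DMSO and 60.6, 57.5 and 53.02 CPM in etoposide, a change of 0.64 ± 0.06 (adjusted p = 4.54e-16). ATP5B reached 58.4, 61.9 and 58.9 CPM (0.42 ± 0.05, adjusted p = 2.66e-09). ATP5F1 reached 56.9, 58.8 and 57.7 CPM (0.40 ± 0.05, adjusted p = 2.19e-08). In each case the etoposide libraries were clear of the DMSO libraries. ATP5A1 reached 61.7, 68.2 and 63.1 CPM (0.31 ± 0.05, adjusted p = 6.29e-06), and ATP5O rose by 0.30 (adjusted p = 0.000594). ATP5J2 had 0.24 ± 0.07 (adjusted p = 0.0372), a call that ended without any of 5 of the 6 libraries and in 2 other settings. Of the 6 ATP5I guides, the 4 that were below 0 in growth of WT cells stood at 0.68 to 0.97 in KO etoposide, and the other two at 0.03 and 0.24. The c ring stood near 0, at −0.07, −0.06 and 0.08, and so did the rotor subunit ATP5C1 at −0.09.

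In complex III, UQCRC1 went from 34.00, 34.1 and 37.01 CPM in DMSO to 38.96, 48.3 and 45.9 CPM in etoposide (0.34 ± 0.06, adjusted p = 4.13e-05). UQCR10 went from 57.2, 58.8 and 54.7 CPM to 67.2, 69.8 and 65.2 CPM (0.24 ± 0.05, adjusted p = 0.000236). Both genes' groups were apart. UQCRFS1 reached 36.01, 39.6 and 40.02 CPM (0.30 ± 0.07, adjusted p = 0.00151), and its call ended when guides of under 200 counts were left out (adjusted p = 0.172). The other core protein UQCRC2 (0.08), the ubiquinone-binding protein UQCRB (0.12) and CYC1 (0.00) were not called.

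In complex IV, COX7B went from 53.7, 52.2 and 47.6 CPM to 62.4, 63.8 and 59.7 CPM (0.28 ± 0.05, adjusted p = 6.54e-05), with 6 of 6 guides higher. COX5A, a subunit on the matrix side, went from 64.9, 61.6 and 56.2 CPM to 72.1, 71.6 and 70.3 CPM (0.23 ± 0.05, adjusted p = 0.000533). COX6B1, which faces cytochrome c, rose by 0.34 (adjusted p = 0.00205). The groups of COX7B and COX5A did not overlap. COX8A rose by 0.20 (adjusted p = 0.0495), a call lost whichever of the 6 libraries was left out. The assembly factors that rose were COX11 (0.18 ± 0.05, adjusted p = 0.0211) and COX17 (0.21 ± 0.06, adjusted p = 0.0265), which both carry copper to complex IV. Each lost its call in 6 or 5 of 13 other settings, with an adjusted p of up to 0.109 and 0.281.

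Whether the response to etoposide differed by p53 status was asked directly. The difference was called for 0 of the 55 genes by edgeR, with 9 under an unadjusted p of 0.05 beside 1950 of all 19044 genes, and for 0.0525% of all genes. ATP5I had the smallest p, at 0.28 ± 0.08 (adjusted p = 0.156), followed by UQCRC1 at 0.27 ± 0.09 (adjusted p = 0.212). The larger number of calls in KO cells is thus not shown to be a difference between the backgrounds for any 1 gene. Non-targeting scaling moved the split of all calls in this difference from 5 higher and 5 lower to 4 and 15.

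Against T0 the etoposide libraries showed less. In WT cells 0 of the 55 genes were called by edgeR, 4 were under an unadjusted p of 0.05 beside 1673 of all 19044 genes, and limma on guide means also called 0, where 0.856% of all genes were called. ATP5A1 had −0.16 ± 0.05 (adjusted p = 0.213). In KO cells 2 were higher, where 1.12% of all genes were called. ATP5I stood at 50.3, 47.3 and 42.7 CPM at T0 and 60.6, 57.5 and 53.02 CPM in etoposide (0.29 ± 0.06, adjusted p = 0.000626), a call that ended without KO T0 C (adjusted p = 0.0525). COX5A stood at 61.9, 62.2 and 62.7 CPM and 72.1, 71.6 and 70.3 CPM (0.20 ± 0.05, adjusted p = 0.0134), which ended without either of T0 A or B or of etoposide A or B. Both genes' etoposide libraries lay above T0. The median over the 15 ATP synthase subunits, relative to T0, was −0.18, −0.19 and −0.17 in WT DMSO libraries and −0.06, 0.02 and 0.00 in WT etoposide libraries. It was −0.08, −0.10 and −0.07 in KO DMSO libraries and 0.07, 0.12 and 0.09 in KO etoposide libraries.

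At T0 the pools already differed for 4.54% of all genes. Of the 55, 2 were higher in the KO pool and 0 lower. COX6A1 stood at 62.6, 67.02 and 63.7 CPM in WT and 73.8, 71.7 and 74.1 CPM in KO cells (0.18 ± 0.05, adjusted p = 0.0107), where 1 of its 6 guides stood at 1.33. COX7A1, the heart and muscle isoform, stood at 97.3, 92.8 and 91.2 CPM and 104, 108 and 104 CPM (0.17 ± 0.04, adjusted p = 0.0134). Neither gene's groups overlapped. The COX6A1 call ended without WT T0 A, WT T0 C or KO T0 C, and with guides of under 200 counts left out. That of COX7A1 ended without WT T0 B, WT T0 C or KO T0 B, and in limma on guide means. The adjusted p reached up to 0.0844 for COX6A1 and 0.129 for COX7A1. Non-targeting scaling gave 5 of the 55 and moved the split of all genes from 458 higher and 407 lower to 1731 and 164.

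Other genes of these pathways were read from lists, beside the 5.4% of all genes called lower in growth of WT cells and the 3.09% in KO cells. In growth of WT cells guides against cytochrome c itself fell (CYCS, −0.25 ± 0.05, adjusted p = 0.00044), 1 of 3 electron carrier genes. Of 6 regulators of respiratory gene expression 3 fell, the transcription factors NRF1 (−0.28 ± 0.06, adjusted p = 0.00121) and GABPA (−0.21 ± 0.06, adjusted p = 0.0247) and the mitochondrial DNA packaging factor TFAM (−0.19 ± 0.06, adjusted p = 0.0188). Of 18 complex IV assembly genes outside the symbol rule 1 fell, COA3 (−0.20 ± 0.05, adjusted p = 0.00711). Of 8 symbols for complex III assembly genes 1 fell, MNF1, an older symbol of UQCC2 (−0.18 ± 0.05, adjusted p = 0.023). Of 7 ATP synthase assembly genes and 3 carriers of phosphate or adenine nucleotides, 0 passed, with 2 of each list under an unadjusted p of 0.05. In growth of KO cells NRF1 (−0.22 ± 0.06, adjusted p = 0.0179) and the complex III assembly gene C11orf83, also called UQCC3 (−0.16 ± 0.05, adjusted p = 0.0244) fell.

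In etoposide against DMSO, where 1.91% of all genes were called higher in WT and 3.05% in KO cells, guides against CYCS rose in WT (0.26 ± 0.05, adjusted p = 0.000557) and KO cells (0.32 ± 0.05, adjusted p = 5.28e-06), and CYCS also stood above T0 in KO cells (0.20 ± 0.05, adjusted p = 0.0253). TFAM rose in WT (0.20 ± 0.06, adjusted p = 0.0329) and KO cells (0.22 ± 0.06, adjusted p = 0.00796). Of the 18 complex IV assembly genes outside the rule, 2 rose in WT cells, COA3 (0.20) and the mitochondrial RNA-binding protein LRPPRC (0.17). In KO cells 4 rose, namely HIGD2A (0.24), LRPPRC (0.23), PET117 (0.24) and COA5 (0.26). The phosphate carrier SLC25A3 rose in KO cells (0.20 ± 0.06, adjusted p = 0.0498). Of the assembly genes for ATP synthase and for complex III, 0 were called in either background by edgeR.

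Transcript levels showed which of these genes U2OS cells express. The gene lengths behind TPM are those listed in the deposited table. Over the 10 libraries the 34 subunits had median levels from 29.7 TPM (UQCRB) to 734 TPM (COX6A1). CYC1 (694), ATP5J2 (682), COX8A (662) and ATP5B (611) followed COX6A1, and the ranges of the first 4 over libraries overlapped. The 9 assembly factors ran from 0.77 TPM (COX20) to 71.7 TPM (COX17), and 32 of the 34 subunits stood above COX17, the exceptions being UQCRB and UQCR11.

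Isoform pairs differed widely. COX7A2 had a median of 193 TPM and its muscle isoform COX7A1 0.81. COX6B1 had 583 and the testis isoform COX6B2 0.77. COX4I1 had 478 and the lung isoform COX4I2 a median of 0, as did COX6A2, COX7B2, COX8C and ATP5L2 beside COX6A1, COX7B, COX8A and ATP5L. In the screen 0 of the 8 isoforms and copies were called in the growth or etoposide comparisons of either background on the reported scale, whereas non-targeting scaling called COX4I2, with its median of 0 TPM, lower in growth of WT cells. UQCRHL, a retrocopy of UQCRH, had 11.1 TPM against 200.1 for UQCRH, and how reads were shared between the copies is not given in the sources used here. The c ring genes ATP5G1, ATP5G2 and ATP5G3 had 209, 572 and 75.6 TPM.

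**Figure D4:**
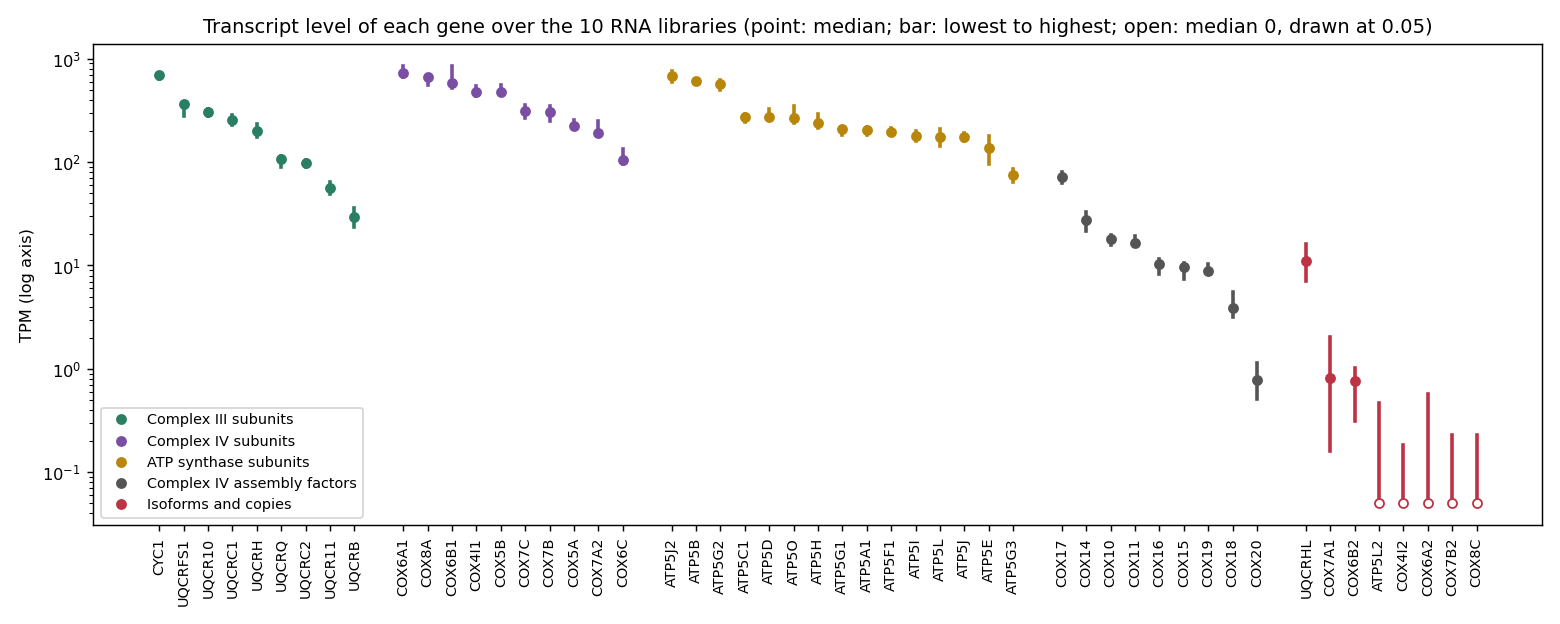
Median TPM (points, log axis) and range over the 10 RNA libraries (bars) of each gene by class, with open points for genes with a median of 0 drawn at 0.05. Subunits lie between 29.7 and 734 TPM, above 8 of the 9 assembly factors, and 5 of the 8 isoforms and copies have a median of 0.

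After 8 h in medium from WT donors given DMSO, 14 of the 50 genes that passed the filter differed from T0, 4 higher and 10 lower, where 35.4% of all genes were called. In KO DMSO medium 18 differed (13 higher, 5 lower, 36.8% of all genes), in WT etoposide medium 14 (10 higher, 4 lower, 41% of all genes) and in KO etoposide medium 12 (6 higher, 6 lower, 46.6% of all genes). In each of the 4 the share of called members was near or below that of all genes. The 4 comparisons share the T0 libraries. No group was kept for 8 h in unconditioned medium. Changes from T0 thus cannot be told apart from time in culture or a change of medium. Errors of RNA log2 changes are standard errors with 2 libraries a group. With so few libraries, groups can lie apart in genes that did not change. As in the screen, non-overlap below only describes the libraries of genes picked by p. In bulk RNA fewer cells of a type and less RNA per cell cannot be told apart.

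Complex III and complex IV held the genes called against T0 in all 4 media and under every setting tried, namely UQCRFS1, COX6B1 and COX7A2. UQCRFS1 stood at 141 and 141 CPM at T0 (libraries A and B), at 174 and 188 in WT DMSO medium and at 183 and 188 in WT etoposide medium. With KO donors it stood at 199 and 192 in DMSO medium and 186 and 193 in etoposide medium. Every conditioned library was above T0. The changes from T0 were 0.36 ± 0.07 (adjusted p = 0.000488), 0.39 ± 0.07 (adjusted p = 0.000166), 0.47 ± 0.07 (adjusted p = 3.8e-05) and 0.42 ± 0.07 (adjusted p = 6.69e-05) in that order. UQCRB, the ubiquinone-binding subunit, moved the same way, from 53.8 and 50.6 CPM to 67.01 and 67.2 in WT DMSO, 74.7 and 74.7 in WT etoposide, 67.1 and 63.3 in KO DMSO and 61.95 and 62.9 in KO etoposide medium. Its changes were 0.36 ± 0.08 (adjusted p = 0.000932), 0.52 ± 0.07 (adjusted p = 2.1e-05), 0.32 ± 0.08 (adjusted p = 0.00254) and 0.26 ± 0.08 (adjusted p = 0.00886), and the calls with KO media ended without T0 B, with adjusted p of up to 0.0536 and 0.109.

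COX6B1 fell. It stood at 209.7 and 194 CPM at T0, 128 and 135 in WT DMSO, 141 and 152 in WT etoposide, 143 and 133 in KO DMSO and 134 and 163 in KO etoposide medium. All 8 conditioned libraries were below both T0 libraries, with changes of −0.62 ± 0.09 (adjusted p = 1.87e-05), −0.46 ± 0.09 (adjusted p = 0.0003), −0.55 ± 0.09 (adjusted p = 6.91e-05) and −0.44 ± 0.09 (adjusted p = 0.000367). COX7A2 went from 78.2 and 77.2 CPM to between 57.7 and 62.3 CPM in the 8 conditioned libraries. Its changes were −0.39, −0.37, −0.38 and −0.36, with adjusted p from 0.000489 to 0.000636, and no conditioned library reached T0. COX5B and COX7B, called in 3 and 2 of the media, were lower too.

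In ATP synthase the stalk gene ATP5O fell in all 4 media, from 115 and 117 CPM at T0 to 85.7 and 88.3 in WT DMSO, 99.5 and 96.7 in WT etoposide, 88.8 and 83.6 in KO DMSO and 88.2 and 92.3 in KO etoposide medium. All conditioned libraries were below T0, with changes of −0.42 ± 0.07 (adjusted p = 0.000149), −0.24 ± 0.07 (adjusted p = 0.00959), −0.43 ± 0.07 (adjusted p = 0.000113) and −0.36 ± 0.07 (adjusted p = 0.000345). The WT etoposide call ended without T0 A, T0 B or WT etoposide B, with an adjusted p of up to 0.0752. ATP5H, subunit d, fell in WT DMSO medium, from 73.7 and 71.6 to 60.2 and 57.2 CPM without overlap (−0.31 ± 0.08, adjusted p = 0.00599), a call that ended without T0 A or WT DMSO B. It was also called lower in KO etoposide medium. That call was kept in 9 of 10 other settings (−0.40 to −0.22) and ended without KO etoposide A. ATP5E, the epsilon subunit, rose from 20.5 and 17.3 CPM to 25.6 and 32.1 in KO DMSO (0.61 ± 0.13, adjusted p = 0.00102), 26.9 and 31.2 in WT etoposide (0.62 ± 0.13, adjusted p = 0.000761) and 24.7 and 30.1 in KO etoposide medium (0.53 ± 0.13, adjusted p = 0.00216). Its libraries in WT DMSO medium, at 23.5 and 24.2 CPM, were also above T0, but the change was not called (0.33 ± 0.13, adjusted p = 0.0532). ATP5L, subunit g, rose from 83.8 and 86.6 CPM to 112 and 107 in KO DMSO (0.36 ± 0.08, adjusted p = 0.00169), 119 and 113 in WT etoposide (0.44 ± 0.08, adjusted p = 0.000227) and 98.1 and 116 in KO etoposide medium (0.33 ± 0.08, adjusted p = 0.00268). The ATP5E and ATP5L calls in KO etoposide medium ended without KO etoposide B, and that of ATP5E also without T0 B.

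The assembly factors called against T0 moved in both directions. COX14 was called lower in KO etoposide medium and kept that call in 10 of 10 other settings (−0.47 to −0.44). COX17 was called lower in WT DMSO medium, a call kept in 5 of 10 other settings (−0.37 to −0.33). COX15, which makes haem a, rose in KO etoposide medium. It stood at 23.8 and 24.7 CPM at T0 and 31.2 and 33.8 CPM there (0.42 ± 0.09, adjusted p = 0.00101). In WT etoposide medium it stood at 30.9 and 32.8 CPM (0.39 ± 0.09, adjusted p = 0.00225), and both groups were apart from T0. COX15 was also called higher in KO DMSO medium, at a mean of 30.0 CPM. That call was kept in 7 of 10 other settings (0.24 to 0.38) and ended without T0 A, T0 B or KO DMSO A. COX10-AS1, an antisense transcript that starts beside COX10, was called higher than T0 in all 4 media. It stood at 1.003 and 1.77 CPM at T0, 3.30 and 3.23 CPM in WT etoposide medium (1.23 ± 0.27, adjusted p = 0.00133) and 3.29 and 3.43 CPM in KO etoposide medium (1.28 ± 0.27, adjusted p = 0.000767). In DMSO media it stood at 1.99 and 2.73 CPM with WT donors (0.77, adjusted p = 0.0442) and 2.16 and 2.67 CPM with KO donors (0.80, adjusted p = 0.0351), calls that ended in DESeq2 and without T0 A, with adjusted p of up to 0.39 and 0.336. Its groups were apart from T0, its counts were low, and since the strand setting is not given its reads cannot be told apart from those of COX10 where they overlap.

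**Figure D5:**
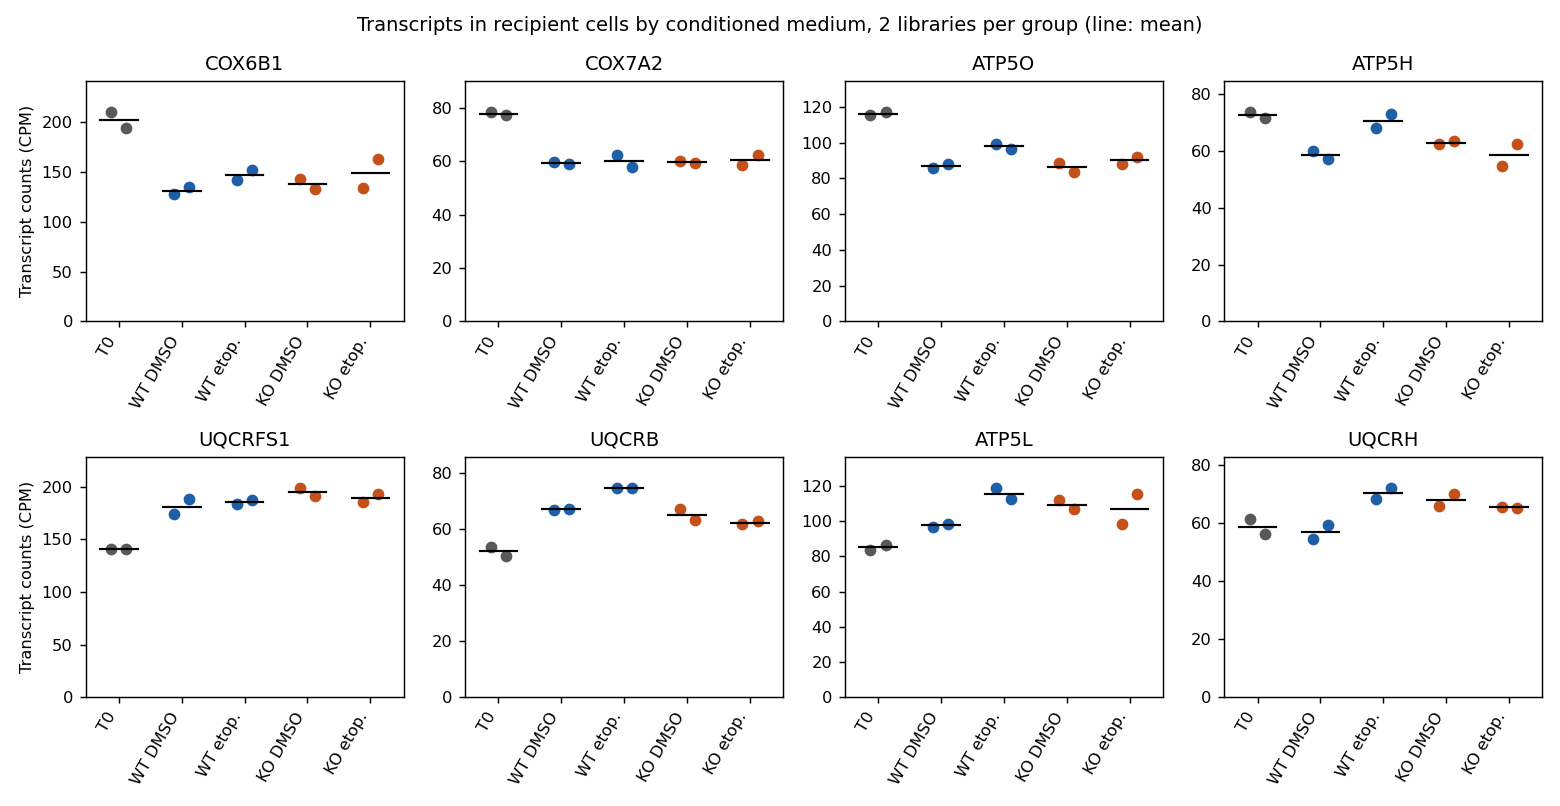
Transcript counts in CPM (axis from 0) of 8 genes in each RNA library, with lines at group means, at T0 (grey) and in medium from WT (blue) or p53 KO donors (orange). COX6B1, COX7A2 and ATP5O are below T0 in all 8 conditioned libraries, and UQCRFS1, UQCRB and ATP5L are above T0 in all 8.

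Promoter sequences are printed for 4 of these genes. UQCRFS1, COX6B1 and ATP5O were called against T0 in all 4 media, and UQCRC1 was called in the screen and in RNA. UQCRB, COX7A2 and COX10-AS1 were also called in all 4 media and are not printed. Genes called in both assays and not printed include ATP5D, COX17, COX6A1, COX7A1 and COX7B. The sequences come from the RefSeq tables (GRCh38.p14) and cover the 250 bases before the start, 5′ to 3′ on the gene's strand. Capitals mark a match, on either strand, to GCGCANGCGC, the core bound by NRF1, a factor long known to regulate respiratory genes. UQCRFS1 lies at chr19:29213152-29213401 on the minus strand, UQCRC1 at chr3:48609647-48609896 on the minus strand, COX6B1 at chr19:35648073-35648322 on the plus strand, and ATP5O (ATP5PO in the table) at chr21:33915805-33916054 on the minus strand.
UQCRFS1: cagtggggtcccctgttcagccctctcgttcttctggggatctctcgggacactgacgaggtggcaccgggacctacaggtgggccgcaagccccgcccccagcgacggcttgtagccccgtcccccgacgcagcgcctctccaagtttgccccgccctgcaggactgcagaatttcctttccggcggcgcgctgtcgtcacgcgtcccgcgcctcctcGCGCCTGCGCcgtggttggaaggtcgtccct
UQCRC1: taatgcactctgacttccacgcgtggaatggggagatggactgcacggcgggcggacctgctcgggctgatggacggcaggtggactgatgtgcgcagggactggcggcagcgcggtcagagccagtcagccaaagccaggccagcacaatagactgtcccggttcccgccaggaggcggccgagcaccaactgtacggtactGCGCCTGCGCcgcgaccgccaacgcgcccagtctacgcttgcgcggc
COX6B1: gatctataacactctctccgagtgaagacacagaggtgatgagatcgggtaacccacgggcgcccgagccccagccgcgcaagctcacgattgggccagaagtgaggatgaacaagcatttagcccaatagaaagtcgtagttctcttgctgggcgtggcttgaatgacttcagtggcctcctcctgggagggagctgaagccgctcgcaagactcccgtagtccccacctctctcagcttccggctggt
ATP5O: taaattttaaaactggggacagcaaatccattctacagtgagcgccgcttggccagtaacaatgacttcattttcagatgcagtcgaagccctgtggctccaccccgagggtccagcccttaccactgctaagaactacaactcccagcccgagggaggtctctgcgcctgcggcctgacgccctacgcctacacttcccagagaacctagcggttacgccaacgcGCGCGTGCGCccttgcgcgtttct

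Counted in bases from the start, the match begins at −31 in UQCRFS1, −47 in UQCRC1 and −24 in ATP5O, and COX6B1 has none in this window. The listed windows of COX7A2, COX10-AS1, COX6A1 and COX7B, which are not printed, hold none either, while a listed window of COX17 holds 2. Promoters in the table matched 27 of the 34 subunit genes and 8 of the 9 assembly factors. Of the 27, 6 held the NRF1 letters (22.2%), as did 2 of the 8, against 6.2% of 27305 genes in windows of the same length. CCGGAAGT, the core bound by ETS factors such as GABPA, was in 8 of the 27 (29.6%) and 2 of the 8, against 4.13% of all genes. A match is a description of letters, and its relation to the changes against T0 was not tested.

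Etoposide medium was compared with DMSO medium from the same donors. With WT donors 6 of the 50 genes were higher and 1 lower, where 34.6% of all genes were called and 16.1% were called higher. The subunits lay above 0 in 28 of 34 cases, including all 9 of complex III and all 10 of complex IV. These genes were read from the same libraries and are not independent, so the count is a description and not a test. Medians were 0.15 for complex III, 0.18 for complex IV, 0.16 for the assembly factors, 0.02 for ATP synthase and 0.01 for all genes. The DMSO medium libraries also enter the comparison with T0, so a low DMSO value enters both with opposite sign. Relative to T0 the complex IV median was −0.19 and −0.18 in WT DMSO medium A and B. In WT etoposide medium A and B it was −0.08 and 0.00. For complex III these medians were −0.11 and −0.02, then 0.09 and 0.04. The members called were a smaller share of the 50 than the calls were of all genes.

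In complex III, UQCRH went from 54.5 and 59.2 CPM in DMSO to 68.3 and 72.05 CPM in etoposide medium (0.30 ± 0.08, adjusted p = 0.00597), with its retrocopy limiting how reads can be assigned. UQCRC1 went from 157 and 149.8 CPM to 188 and 182 CPM (0.27 ± 0.07, adjusted p = 0.00667). It was also called lower in WT DMSO medium than at T0, a call kept in 6 of 10 other settings (−0.24 to −0.17). In ATP synthase, ATP5H (subunit d) went from 60.2 and 57.2 CPM to 68.2 and 73.1 CPM (0.27 ± 0.08, adjusted p = 0.0154). The groups of each were apart. ATP5L went from 96.8 and 98.4 CPM to 119 and 113 CPM (0.25 ± 0.08, adjusted p = 0.0228). The c ring gene ATP5G2 fell from 319 and 324 CPM to 286 and 259 CPM (−0.23 ± 0.09, adjusted p = 0.0446). In complex IV, COX6A1 went from 157 and 165 CPM to 182 and 194 CPM (0.23 ± 0.08, adjusted p = 0.0394), and COX4I1 rose by 0.19 (adjusted p = 0.0474). None of these 4 groups overlapped.

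These calls rested on few libraries. Leaving out 1 of the 4 libraries ended the calls of COX6A1, COX4I1 and ATP5G2 each time, with adjusted p of up to 0.213, 0.307 and 0.333. The ATP5L call ended without either DMSO library or etoposide A, that of ATP5H without DMSO B or etoposide B, that of UQCRH without DMSO A or etoposide B, and that of UQCRC1 without DMSO B. Fitting the 4 libraries alone gave 12 calls among the 50 genes, where 6233 of 15391 genes were called, and a filter at a mean of 1 CPM gave 11, where 5256 of 13695 were. The COX4I1 call also ended with no filter and with the library letter as a replicate block.

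With KO donors the same comparison gave 1 gene higher and 2 lower of 50, where 37.2% of all genes were called. ATP5D went from 126 and 140.3 CPM in DMSO to 109.9 and 108 CPM in etoposide medium (−0.29 ± 0.07, adjusted p = 0.00452), without overlap. ATP5S, also called coupling factor B, went from 5.47 and 5.76 CPM to 7.49 and 7.34 CPM (0.40 ± 0.15, adjusted p = 0.0475), a call that 7 of 10 other settings ended. COX7A1 stood at 0.63 and 0.67 CPM and 0.05 and 0.16 CPM (adjusted p = 0.00613), too few counts for a fold to be given. ATP5D kept its call in all 10 other settings. Class medians were −0.06 for complex III, 0.05 for complex IV and −0.07 for ATP synthase.

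Donors were then compared within a treatment. In DMSO medium 0 of the 50 genes differed between KO and WT donors by edgeR, 9 were under an unadjusted p of 0.05 beside 3041 of all 15391 genes, DESeq2 called 1, and 1.56% of all genes were called. In etoposide medium 3 were lower with KO donors, where 14.1% of all genes were called. UQCRB stood at 74.7 and 74.7 CPM with WT and 61.95 and 62.9 CPM with KO donors (−0.26 ± 0.07, adjusted p = 0.0252). COX14 stood at 12.3 and 13.1 CPM and 9.44 and 9.26 CPM (−0.44 ± 0.13, adjusted p = 0.0296). ATP5H stood at 68.2 and 73.1 CPM and 54.7 and 62.6 CPM (−0.27 ± 0.08, adjusted p = 0.0334). None of the 3 overlapped between donors. Leaving out any 1 of the 4 libraries left 0 or 1 of these calls, with adjusted p of up to 0.124 for UQCRB, 0.16 for COX14 and 0.287 for ATP5H. The authors' deposited table of KO against WT medium, whose fold changes match the etoposide comparison (Pearson's r 0.99997 across 13604 genes, which are not independent replicates), lists 47 of the genes, 31 of them lower. In the authors' deposited table UQCRB had −0.26 (adjusted p = 0.0295), ATP5H −0.27 (adjusted p = 0.0392) and COX14 −0.44 (adjusted p = 0.0721).

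The response to etoposide medium with KO donors minus that with WT donors was called for 0 of the 50 genes by edgeR, with 11 under an unadjusted p of 0.05 beside 2918 of all 15391 genes, where 2.12% of all genes were called. It was below 0 for 40 of the 50, which share their libraries and are not independent. Its median over the 50 was −0.10, against 0.00 over all genes. ATP5H (−0.37 ± 0.12, adjusted p = 0.0904) and UQCRH (−0.36 ± 0.11, adjusted p = 0.0936) had the smallest p. The KO DMSO medium libraries, which stood apart from each other, enter this value. Leaving 1 of them out moved the calls over all genes as well, from 326 to 1693 of 15391 without A and to 1025 without B. Without KO DMSO medium A, 9 of the 50 genes were lower, namely ATP5D, ATP5E, ATP5H, ATP5I, COX14, COX4I1, UQCR11, UQCRC1 and UQCRH, and 7 were higher in KO than in WT DMSO medium, among them ATP5D (0.34), ATP5E (0.43) and UQCRH (0.30). In that comparison of DMSO media 2999 of 15391 genes were then called, against 240 with both libraries and 11 without B. Without KO DMSO medium B, 1 gene was lower, ATP5H (−0.37, adjusted p = 0.0479). The part of the library pair in these values was not tested further.

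The lists of partner genes were read in the same contrast of etoposide and DMSO medium, where 34.6% of all genes were called with WT donors and 37.2% with KO donors. NRF1 transcripts fell with WT (−0.74 ± 0.12, adjusted p = 6e-05) and KO donors (−0.80 ± 0.12, adjusted p = 2.6e-05), and so did those of the coactivator PPARGC1B (−0.52 and −0.94). TFAM rose with both (0.36 ± 0.09, adjusted p = 0.00289 and 0.43 ± 0.09, adjusted p = 0.000594), and so did CYCS (0.34 and 0.33) and the adenine nucleotide carrier SLC25A4 (0.45 and 0.55). The regulators thus moved in both directions, 2 higher and 2 lower of 6 with WT donors and 1 and 2 with KO donors. Of 19 complex IV assembly genes outside the rule, 4 rose and 0 fell with WT donors (TACO1, PET117, COA5 and COA4), and 2 rose (HIGD1A, PET117) and 2 fell (COA3, SURF1) with KO donors. Of 7 ATP synthase assembly genes, 1 rose with WT donors, and 1 rose and 2 fell with KO donors, including the inhibitor ATPIF1 (−0.64 ± 0.08, adjusted p = 6.29e-06). Of 6 complex III assembly genes 0 were called with WT donors and 1 fell with KO donors, UQCC3 (−0.74 ± 0.12, adjusted p = 6.24e-05). Genes coded in mitochondrial DNA were not analysed here.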

How the data were processed

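The authors deposited raw guide counts for 18 screen libraries and raw counts per gene symbol for 10 RNA libraries, per the file headers. They also deposited a table of their own comparison with mean normalised signal, log2 fold changes, a Wald score and p-values, per the file headers. The submitters' processing notes name Bowtie2, DESeq2 and hg19, without versions; the sources used here do not give the RNA annotation or strand setting.

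Guide counts were summed per gene with at least 3 guides (109367 guides listed, 999 non-targeting) and RNA counts were filtered with filterByExpr. After TMM scaling both were tested in edgeR 4.0.16 in R 4.3.3 (quasi-likelihood test, two-sided, all libraries of an assay in 1 fit, 12 residual degrees of freedom in the screen and 5 in the RNA, Benjamini-Hochberg over all genes, threshold 0.05). The fits were also run on counts simulated with the spread estimated from these data, which cannot show whether libraries came from separate cultures. Class medians are of fitted log2 changes, library medians of log2 CPM (prior count 2). CPM use TMM-scaled library sizes. Alternatives were DESeq2 1.42.0, limma 3.58.1 on guide means, non-targeting scaling, other filters, only the libraries compared, a replicate block, and leaving out each library. Members and gene lists were chosen with earlier results of these data known. Genes given in full were, by rule, at most 8 called members per screen contrast and 6 per RNA contrast, in order of p, and the member with the smallest p in each complex. Library letters were not used to pair samples in the reported fits. The check of the targeted gene is not reported here. 0 columns of per-sample values were left unmapped.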

Additional observations from a re-analysis of the deposited data

Results flagged for a closer look

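The response of transcripts to etoposide medium differed between KO and WT donors for 2 of 58 tested genes of the partner, marker and check lists, where 2.12% of all genes were called. For ATPIF1, the inhibitor of ATP hydrolysis by ATP synthase, the response with KO donors minus that with WT donors was −0.45 ± 0.12 (adjusted p = 0.0489), from −0.18 with WT to −0.64 with KO donors. For UQCC3, a complex III assembly factor, it was −0.64 ± 0.17 (adjusted p = 0.0496), from −0.09 to −0.74. Both adjusted p were close to the threshold. Fitted on the libraries compared alone, they were 0.0915 for ATPIF1 and 0.0813 for UQCC3. They were also above the threshold without either library of WT DMSO, WT etoposide or KO etoposide medium, with the highest at 0.231 and 0.242 without KO etoposide medium A. Without KO DMSO medium A they were 0.0205 and 0.00761, and without KO DMSO medium B 0.00365 and 0.0307. The UQCC3 value was 0.0506 with a replicate block. The KO DMSO medium libraries, which stood apart from each other, enter both values, and calls over all genes ran from 30 to 1693 when 1 library was left out, against 326 as reported.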

How the results depend on the processing

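Of 111 single calls tried under every setting, 52 were kept in all, and none changed direction. Counts of called members moved by more than 1.5 times as follows. Non-targeting scaling gave 19 in growth of WT cells (9 as reported), 10 in etoposide WT (6) and 5 between starting pools (2). Leaving out guides of under 200 counts gave 9 in etoposide KO (15) and 1 between pools. limma on guide means gave 1 for KO etoposide against T0 (2). Only the libraries compared gave 4 between pools, 22 in WT DMSO medium against T0 (14) and 12 in etoposide against DMSO medium of WT donors (7). A filter of 1 CPM gave 11 there. For DMSO medium, KO against WT (0), DESeq2 gave 1 and no filter gave 2. Without each library in turn, counts ran from 4 to 7 in growth of KO cells, 0 to 2 between pools and 1 to 2 for KO etoposide against T0. They ran from 7 to 9 in WT DMSO, 8 to 18 in KO DMSO and 8 to 12 in WT etoposide medium against T0. They ran from 2 to 5 in etoposide against DMSO medium of WT donors and 2 to 5 of KO donors, 0 to 7 in DMSO medium and 0 to 1 in etoposide medium, KO against WT, and 0 to 9 in the difference. The cause was not tested.

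Library letters are shared by the groups. In the screen, deviations correlated above 0.1 in 4 of 45 same-letter pairs and 1 of 90 other-letter pairs. In the RNA they did so in 2 of 20 and 0 of 20 pairs. Mean correlations for same and other letters were 0.019 and −0.009 in the screen, and 0.012 and −0.012 in the RNA. These small values do not settle whether the letters pair samples, and the reported fits did not use the letters. With the letter as a replicate block the count was 9 in growth of WT cells and 15 in etoposide KO, and no count moved by over 1.5 times, while the call of COX4I1 in etoposide against DMSO medium of WT donors ended. Of 18 screen libraries 16, and of 10 RNA libraries 8, correlated best with their own letter, a hint from the data and not the design. With 2 RNA libraries a group, a lone library left is assumed to vary like the other groups.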
